A study of Mus musculus with 222 samples.

Results

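Germ cells of XY mouse embryos at E13.5 were compared between ECKO embryos, labelled Eed -/-, and Control embryos, labelled wild type, in 7 bulk RNA-seq libraries out of 222 samples in the series. All bulk RNA-seq libraries of that sex and stage in one count table were taken, 3 ECKO and 4 Control, with all 24391 gene symbols of the table. The cells were primordial germ cells sorted from digested gonads by the green fluorescence of an Oct4-GFP transgene, on a C57BL/6;129S1/SvlmJ background. In ECKO embryos Eed is removed by a Cre driven by Blimp1, a gene switched on when germ cells are specified. The mothers carried floxed Eed on both alleles and the fathers were Eed fl/+ with the Cre, so each embryo, Controls included, received a floxed allele from its mother. No label says whether a library came from 1 embryo or from a pool, so p-values measure the spread between libraries, which may be technical.

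EED is the subunit of Polycomb repressive complex 2 (PRC2) that binds methylated lysine 27 of histone H3 and stimulates the methyltransferase EZH2, and PRC2 is known for holding developmental genes silent. Male germ cells of this age normally leave the pluripotent state, stop dividing and begin a program that includes Nanos2, which blocks meiosis, and the piRNA pathway, in which Piwi proteins and their Tudor domain partners use small RNAs to silence transposons. Meiosis starts around this time in XX germ cells and is normally held back in XY germ cells. The comparison addresses what PRC2 does while germ cells differentiate in the embryonic testis.

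The libraries held 8887996 to 10086715 counts in ECKO and 4903492 to 12425911 in Controls. Levels are given as CPM, counts relative to the library total with TMM scaling, which can be compared between libraries but not between genes, since counts also grow with transcript length. Ddx4, a germ cell RNA helicase, was at 358 ± 53.7 CPM in ECKO and 322 ± 64.2 CPM in Controls (SD, n = 3 ECKO and 4 Control, as for all means here). Dazl, a germ cell RNA-binding protein, was at 486 ± 122 CPM in ECKO and 714 ± 253 CPM in Controls. Of 8 germ cell markers tested, 1 (Mael) was called higher and 0 lower, beside 2.99% and 1.90% of all tested genes. A negative log2 fold change was found in 5. Of these, 3 (Kit, Dppa3 and Nanog) had every ECKO library below every Control, an arrangement found in 11.2% of all tested genes. Kit, the stem cell factor receptor of germ cells, had 271, 69.2 and 29.3 CPM in ECKO and 660.4, 433, 423 and 366 CPM in Controls (log2 fold change -1.94, SE 0.61, adjusted p = 0.0855). On the principal component with 44.1% of the variance, ECKO libraries 1 to 3 lay at 34.8, 97.4 and 123. Controls 1 to 4 lay at -35.7, -17.5, -167 and -35.4 on it, so it separated the groups, with Control 3 the furthest out. ECKO 1 stood apart on the component with 22.1%, at -149. The ribosomal RNA row Rn45s took 2.30%, 13.1% and 8.57% of counts in ECKO 1, 2 and 3 and 1.66% to 2.73% in Controls.

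Eed itself had 2.98, 12.7 and 10.4 CPM in ECKO libraries 1 to 3, against 80.4, 93.5, 57.5 and 119.8 CPM in Controls 1 to 4. Each ECKO library was below each Control (log2 fold change -3.33, SE 0.56, adjusted p = 0.0107), and the adjusted p was 0.0509 when Control 4 was left out. Of the 11 PRC2 subunits tested, Eed was the single one called. Ezh2, the methyltransferase of the complex, had 187, 72.7 and 54.2 CPM in ECKO and 277, 293, 525 and 267 CPM in Controls, just missing the threshold (-1.71, adjusted p = 0.0518). Suz12, a core subunit, was not called either (-1.78, adjusted p = 0.0944). Without ECKO 1 the number of subunits called lower was 5 of 11. In that setting 1185 of all tested genes were called lower, against 235 with every library.

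Of 12336 genes with enough counts for the test, 604 (4.90%) were called at an adjusted p under 0.05 by the quasi-likelihood F test of edgeR with Benjamini-Hochberg adjustment, which gave every adjusted p here. ECKO cells had 369 genes higher (2.99% of those tested) and 235 lower (1.90%). The rises were larger than the falls, with a median log2 fold change of 4.03 among genes called higher and -1.89 among genes called lower, against 0.05 over all tested genes. Of the genes called higher, 141 had a Control mean under 1 CPM, and such a gene could pass the low-count filter only through the ECKO libraries. All ECKO libraries lay above all Controls in 359 of the 369 genes called higher, an arrangement found in 12.2% of tested genes. They lay below all Controls in each of the 235 called lower, which was found in 11.2%. A lack of overlap is thus near general among called genes and sets no called gene apart.

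How many genes passed depended on single libraries. It was 162 without Control 1, 309 without Control 2, 720 without Control 3 and 94 without Control 4. It was 2141 without ECKO 1 (956 higher and 1185 lower), 99 without ECKO 2 and 108 without ECKO 3. Counts of list members called in these settings are to be read beside these totals. None of the 604 genes changed direction in these 7 settings. Of 73 called genes that the naming rule picked, 8 stayed called whichever library was left out: Zbtb16, Tex101, Taf7l, Tdrd1, Mael, Hoxc12 and Ccnd2, which were higher, and Rrm2, which was lower. Leaving out Control 4 lost 60 of the 73 calls, ECKO 2 lost 57 and ECKO 3 lost 54.

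**Figure D1:**
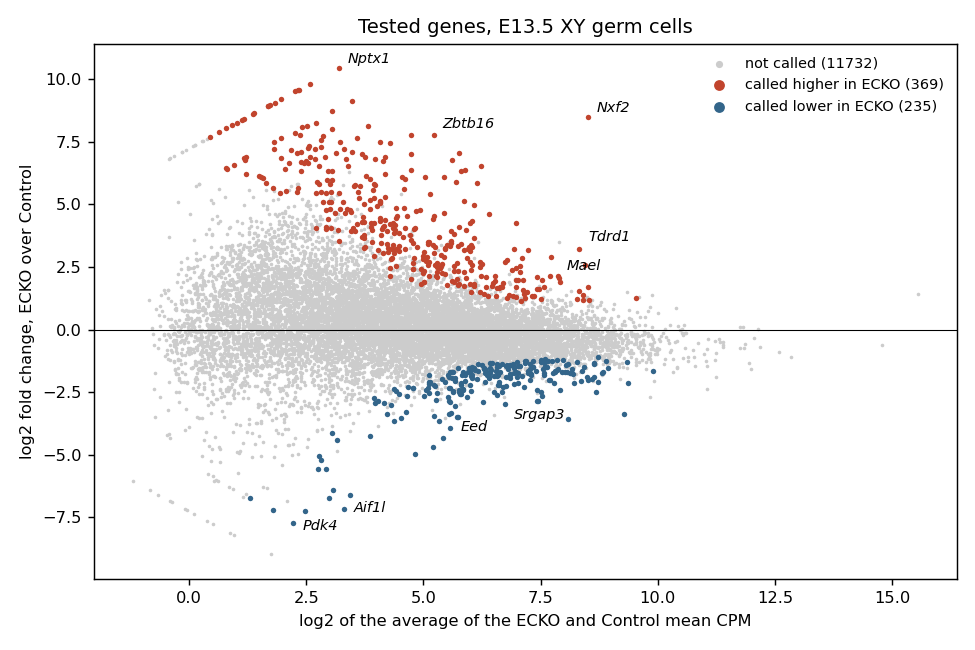
Each point is 1 of the 12336 tested genes, with the log2 of the average of the ECKO and Control mean CPM on the x axis and the log2 fold change of ECKO over Control on the y axis. Red points are the 369 genes called higher in ECKO and blue points the 235 called lower, and the red points reach further from 0 than the blue ones.

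Genes of male germ cell differentiation were called higher in ECKO in 13 of 23 tested members (56.5%), beside 2.99% of all tested genes. The other 10 were not called, and the median log2 fold change of the list was 2.15. Of the 13, 4 had a Control mean under 1 CPM and could pass the low-count filter only through the ECKO libraries. A further 5 of the 28 members were not tested. This and the other lists were chosen with earlier results of these data known, so their shares are descriptions only. Nanos2, the RNA-binding protein that directs the male fate, had 2.03, 52.4 and 52.2 CPM in ECKO libraries 1 to 3, against 0.202, 2.47, 0.122 and 0.634 CPM in Controls 1 to 4. ECKO 1 was below Control 2, so the groups overlapped, while ECKO 2 and 3 were far above every Control (log2 fold change 5.30, SE 1.20, adjusted p = 0.0296). Dnmt3l, the cofactor of de novo DNA methylation in male germ cells, had 2.03, 8.13 and 12.49 CPM in ECKO and 0, 0, 0.612 and 0.634 CPM in Controls without a call (4.65, adjusted p = 0.0987). Nanos3, which protects early germ cells from apoptosis, had 12.2, 9.51 and 11.6 CPM in ECKO and 1.11, 0.240, 0 and 2.32 CPM in Controls, also without a call (3.63, adjusted p = 0.114). For both of these genes the ECKO libraries were all above the Controls.

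The piRNA pathway, a list that shares members with that of male differentiation, held 9 called members of 23 tested, all higher in ECKO. That is 39.1%, beside 2.99% of all tested genes, and the median log2 fold change of the list was 1.66. All of the 9 but Gtsf1 were also among the called members of the male differentiation list. Of the 9, 2 had a Control mean under 1 CPM and could pass the low-count filter only through the ECKO libraries. Tdrd1, a Tudor protein that binds Piwi proteins, had 386, 483 and 869 CPM in ECKO and 35.9, 115.4, 38.6 and 57.0 CPM in Controls (log2 fold change 3.23, SE 0.46, adjusted p = 0.00535). Mov10l1, the RNA helicase that feeds piRNA precursors into the pathway, had 325, 526.1 and 941 CPM in ECKO and 114, 160.5, 51.0 and 79.4 CPM in Controls (log2 fold change 2.56, SE 0.45, adjusted p = 0.0122). Mael, which is needed for transposon silencing, had 343, 342 and 453 CPM in ECKO and 59.2, 133, 83.0 and 67.6 CPM in Controls (log2 fold change 2.15, SE 0.34, adjusted p = 0.00965). In these 3 genes the lowest ECKO library was above the highest Control. Tdrd9, a helicase partner of the nuclear Piwi protein, averaged 85.3 ± 96.3 CPM in ECKO and 1.28 ± 1.11 CPM in Controls, with ECKO 3 alone at 195 CPM (6.08, adjusted p = 0.0122). Piwil4, that nuclear Piwi protein, averaged 27.8 ± 26.7 CPM in ECKO and 0.981 ± 0.739 CPM in Controls (4.79, adjusted p = 0.0217). Gtsf1 (4.71), Ddx25 (2.50), Piwil2 (2.13) and Asz1 (1.72) were the other members called higher, with log2 fold changes in brackets. Members without a call included Rnf17 (-0.096), Stk31 (0.67) and Tdrd5 (0.90).

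The calls of Tdrd1 and Mael held whichever library was left out. Without ECKO 3 the adjusted p was 0.111 for Nanos2, 0.0948 for Tdrd9, 0.156 for Piwil4, 0.130 for Piwil2, 0.108 for Ddx25 and 0.204 for Gtsf1. It was 0.0586 for Mov10l1 without Control 4, and 0.111 for Asz1 without ECKO 2. With each library left out in turn, 4 to 15 members of the male differentiation list and 2 to 11 of the piRNA list were called higher, fewest without Control 4 or ECKO 3 and most without ECKO 1.

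**Figure D2:**
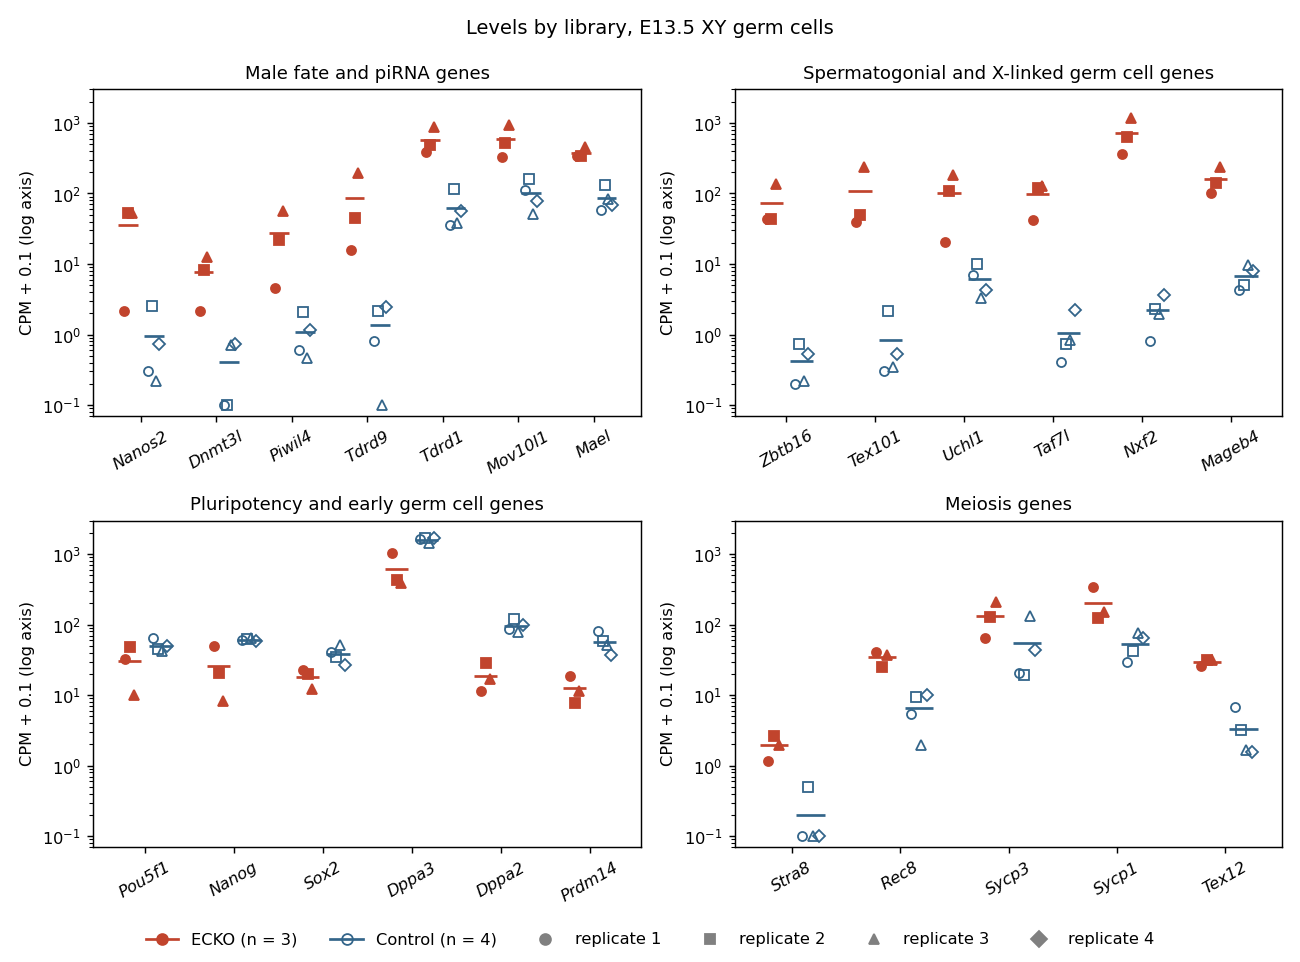
Points give the level of each gene in each library as CPM plus 0.1 on a log axis, with ECKO (red, n = 3) to the left of Control (blue, n = 4) and short lines for group means. The lowest Tdrd1 value in ECKO, 386 CPM, is above the highest in Controls, 115.4 CPM, while Nanos2 in ECKO 1, at 2.03 CPM, lies within the Control range.

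Genes of spermatogonia and later male germ cells were called higher in 10 of 27 tested members (37%), beside 2.99% of all tested genes. The median log2 fold change of the list was 1.71. Of the 10, 4 had a Control mean under 1 CPM, among them Zbtb16, Tex101 and Taf7l. These could pass the low-count filter only through the ECKO libraries. Zbtb16, the PLZF transcription factor of spermatogonial stem cells, had 43.1, 42.8 and 136 CPM in ECKO, against 0.101, 0.639, 0.122 and 0.422 CPM in Controls (log2 fold change 7.77, SE 0.80, adjusted p = 0.00124). Tex101, a surface protein of male germ cells, had 39.0, 50.2 and 234 CPM in ECKO and 0.202, 2.08, 0.245 and 0.422 CPM in Controls (log2 fold change 7.06, SE 0.93, adjusted p = 0.00328). Taf7l, an X-linked relative of a general transcription factor subunit used in spermatogenesis, had 42.6, 119.6 and 129 CPM in ECKO and 0.303, 0.639, 0.734 and 2.11 CPM in Controls (log2 fold change 6.79, SE 0.71, adjusted p = 0.00124). Every ECKO library was far above every Control for these 3 genes, and all 3 kept their calls with any library left out. Uchl1, a deubiquitinase abundant in spermatogonia, had 20.2, 108 and 181 CPM in ECKO and 6.88, 9.82, 3.18 and 4.22 CPM in Controls (log2 fold change 4.08, SE 0.68, adjusted p = 0.0107). Its adjusted p was 0.0552 without ECKO 3. The remaining called members were Egr4 (6.12), the GDNF receptor Ret (4.24), Tuba3b (3.20), Ddx25, Tktl2 (2.32) and Brdt (1.71), and each of them lost its call in at least 3 of the 7 settings. With 1 library left out, 3 (without Control 4 or ECKO 3) to 16 (without ECKO 1) members were called higher. Zbtb16, Tex101, Ret and Ddx25 were also among the called members of the male differentiation list, and Taf7l among those of the meiosis list. The counts of these lists are therefore not separate. Tuba3b has a near-identical paralog, so its counts are uncertain. Tktl2 was highest in ECKO 1, and without that library its log2 fold change was 1.09 (adjusted p = 0.197).

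The gene with the smallest adjusted p of all was Nxf2, an X-linked relative of the mRNA export factor NXF1 that is known from testis. Nxf2 and the other genes of this paragraph were picked after their values were seen. Nxf2 had 366, 642 and 1168 CPM in ECKO libraries 1 to 3, against 0.708, 2.24, 1.84 and 3.59 CPM in Controls 1 to 4. The groups were far apart (log2 fold change 8.49, SE 0.61, adjusted p = 6.19e-05), and the adjusted p was at most 0.00192 with any library left out. Mageb4, an X-linked gene of the MAGE family, averaged 161 ± 70.9 CPM in ECKO and 6.65 ± 2.54 CPM in Controls (4.61, adjusted p = 0.00124). Dgkk, an X-linked diacylglycerol kinase, averaged 114 ± 56.6 CPM in ECKO and 3.25 ± 1.62 CPM in Controls (5.14, adjusted p = 0.00152). Elf4, an X-linked ETS transcription factor, averaged 102 ± 21.3 CPM in ECKO and 1.81 ± 1.57 CPM in Controls (5.88, adjusted p = 0.00226). Nxf3, another member of the export factor family, averaged 52.6 ± 30.9 CPM in ECKO and 0.351 ± 0.489 CPM in Controls (7.01, adjusted p = 0.00646). Xlr5a, of a cluster of near-identical copies whose counts are uncertain, averaged 64.2 ± 2.95 CPM in ECKO and 0.889 ± 0.727 CPM in Controls (6.08, adjusted p = 0.00308). All 6 genes kept their calls with each library left out in turn.

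Genes called higher were a larger share of X-linked than of autosomal genes, a difference that was not tested. Of 456 tested X-linked genes, 41 (8.99%) were higher in ECKO and 15 (3.29%) lower. Of 11847 tested autosomal genes, 328 (2.77%) were higher and 219 (1.85%) lower. Many of the 41 X-linked genes, among them Sytl4, Xlr5c, Nxf3 and Taf7l, had a Control mean under 1 CPM. Such genes could pass the low-count filter only through the ECKO libraries, on the X as on autosomes, so these shares are descriptions only. The 41 also include Xlr5a, Xlr5b and Xlr5c, of a cluster of near-identical copies. X-linked genes together held 2.77% to 3.02% of CPM in ECKO libraries and 2.70% to 3.06% in Controls, so the ranges overlapped. X-linked genes lower in ECKO, also picked after their values were seen, included Kdm6a (-1.47, adjusted p = 0.0381), a demethylase of the mark that PRC2 makes, and the chromatin remodeller Atrx (-1.66, adjusted p = 0.0418). The adjusted p was 0.143 for Kdm6a without ECKO 3 and 0.167 for Atrx without ECKO 2. With each library left out in turn, 16 to 65 X-linked genes were called higher (3.59% to 12.8% of those tested), against 0.444% to 6.94% of autosomal genes. Of genes called lower, the X-linked share was not above the autosomal one in 4 of these settings. It was 0.456% of X-linked against 0.464% of autosomal genes without Control 1, and 0% of X-linked genes without Control 4, ECKO 2 or ECKO 3, against 0.235%, 0.146% and 0.264% of autosomal genes. Xist, the RNA that silences an X chromosome in XX cells, had 0.358, 22.4 and 48.3 CPM in ECKO and 1.96 to 10.3 CPM in Controls, without a call (adjusted p = 0.311).

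**Figure D3:**
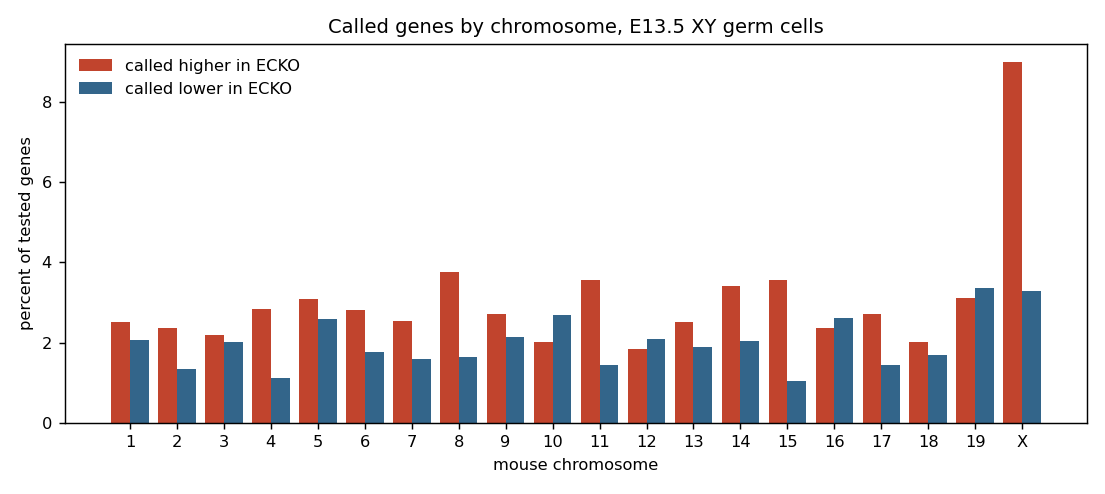
Bars give the percent of tested genes on each mouse chromosome that were called higher (red) and lower (blue) in ECKO. The X chromosome reaches 8.99% higher, against 2.77% over the autosomes together.

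Promoter sequences from RefSeq (build GRCm38.p6, 250 bases before to 50 after the start) are shown for Stra8 and Nanos2, the meiosis and male fate genes of the study's question, and for Nxf2 and Tdrd1, chosen after their values were seen. Capitals mark CACGTG, an E-box that reads the same on both strands, and its central CG is also counted among the CG dinucleotides. Nxf2 lies on the minus strand at chrX:134964705-134965004, Tdrd1 on the plus strand at chr19:56825959-56826258, Stra8 on the plus strand at chr6:34920698-34920997 and Nanos2 on the plus strand at chr7:18987274-18987573.
Nxf2: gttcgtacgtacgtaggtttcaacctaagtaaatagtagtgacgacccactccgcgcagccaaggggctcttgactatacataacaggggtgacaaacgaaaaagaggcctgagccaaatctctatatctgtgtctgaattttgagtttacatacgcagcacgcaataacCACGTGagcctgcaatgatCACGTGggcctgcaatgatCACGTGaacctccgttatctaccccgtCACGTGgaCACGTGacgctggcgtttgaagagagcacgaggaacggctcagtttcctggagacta
Tdrd1: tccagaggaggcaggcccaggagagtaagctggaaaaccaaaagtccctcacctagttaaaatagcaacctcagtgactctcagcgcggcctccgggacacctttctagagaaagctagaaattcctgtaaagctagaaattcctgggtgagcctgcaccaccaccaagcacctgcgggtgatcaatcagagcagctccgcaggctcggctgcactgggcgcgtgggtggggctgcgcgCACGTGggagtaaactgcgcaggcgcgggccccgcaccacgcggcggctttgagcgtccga
Stra8: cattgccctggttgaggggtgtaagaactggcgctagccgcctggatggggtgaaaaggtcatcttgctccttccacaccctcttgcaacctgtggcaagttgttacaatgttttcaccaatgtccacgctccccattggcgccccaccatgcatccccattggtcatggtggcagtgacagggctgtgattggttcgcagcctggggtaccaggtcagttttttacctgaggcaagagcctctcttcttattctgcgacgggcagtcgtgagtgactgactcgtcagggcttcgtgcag
Nanos2: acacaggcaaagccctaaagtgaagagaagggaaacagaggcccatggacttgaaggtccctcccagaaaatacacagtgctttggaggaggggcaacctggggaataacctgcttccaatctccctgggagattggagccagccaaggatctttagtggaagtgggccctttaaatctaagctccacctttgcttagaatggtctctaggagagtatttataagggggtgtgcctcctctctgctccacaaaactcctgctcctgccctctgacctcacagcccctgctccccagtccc
The Nxf2 promoter held CACGTG 5 times and 20 CG dinucleotides, and that of Tdrd1 held it 1 time with 20 CG. Stra8 had no match and 10 CG, and Nanos2 had no match and 0 CG.

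RefSeq promoters matched 9885 of the 12336 tested genes, among them 288 of the 369 called higher and 186 of the 235 called lower, and a gene with several start sites has several promoters. Nxf2 has 2 listed and Tdrd1 has 3, of which the first listed is shown. Over all these promoters, CACGTG stood in 62 of 387 promoters of genes called higher (16%), 17 of 247 of genes called lower (6.88%) and 1274 of 12570 of all tested genes (10.1%). Among X-linked genes it stood in 11 of 40 promoters of those called higher (27.5%) and 59 of 489 of those tested (12.1%). A match is a description of sequence and not of binding. The median promoter had 19 CG in genes called higher, 21 in genes called lower and 21 in all tested genes. Genes called higher had a median of 15 CG where the Control mean was under 1 CPM and of 22 CG where it was 1 CPM or more.

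Of 35 tested meiosis genes, 5 (14.3%) were higher in ECKO, beside 2.99% of all tested genes. The other 30 were not called, and the median log2 fold change was 0.41. Of the 5, 2 (Mei1 and Taf7l) had a Control mean under 1 CPM. These could pass the low-count filter only through the ECKO libraries. DESeq2 called 8 members higher and 2 lower, where it called 1001 higher and 695 lower of all tested genes. Without ECKO 1 edgeR called 6 higher and 5 lower of 37, where 956 and 1185 of all tested genes were called. Without Control 1 it called 2 members higher, and without Control 2, Control 4, ECKO 2 or ECKO 3 it called 1 higher. Stra8, the retinoic acid responsive gene that starts meiosis, had 1.07, 2.58 and 1.87 CPM in ECKO, against 0, 0.399, 0 and 0 CPM in Controls. Its 58 counts in ECKO and 5 in Controls were below the filter, and fitted with no filter its log2 fold change was 3.94 (adjusted p = 0.250). Sycp1, the transverse filament of the synaptonemal complex, had 338, 125 and 153 CPM in ECKO and 29.2, 42.4, 75.8 and 63.6 CPM in Controls (log2 fold change 1.96, SE 0.44, adjusted p = 0.0285). Tex12, of its central element, had 25.6, 31.9 and 31.1 CPM in ECKO and 6.78, 3.11, 1.59 and 1.48 CPM in Controls (log2 fold change 3.17, SE 0.73, adjusted p = 0.0305). In both genes each ECKO library was above each Control. Mei1, needed for meiotic double-strand breaks, had no counts in Controls and was at least 63.1-fold higher in ECKO, against a floor of 3 counts over the Controls. Taf7l and Tex15 (1.52) were the other called members.

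Rec8, the meiotic cohesin subunit, had 40.5, 24.9 and 37.5 CPM in ECKO and 1.84 to 9.93 CPM in Controls, just missing the threshold (2.39, adjusted p = 0.0581). Sycp3, of the axial element, had 63.6, 129 and 208 CPM in ECKO and 20.5, 19.16, 134 and 43.3 CPM in Controls (1.30, adjusted p = 0.248), and Control 3 lay within the ECKO range. Negative values without a call were found for Hormad1 (-1.39, adjusted p = 0.0869) and Smc1b (-0.92, adjusted p = 0.195). Among the called members, Taf7l kept its call with each library left out. The adjusted p was 0.111 for Tex12 and 0.113 for Mei1 without ECKO 2, 0.119 for Tex15 without ECKO 3, and 0.0782 for Sycp1 without Control 1.

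Genes of pluripotency and of early germ cells had a median log2 fold change of -0.78 over 36 tested members. Of these, 2 (5.56%) were lower and 1 (2.78%) was higher in ECKO, beside 1.90% and 2.99% of all tested genes. Dppa2, a chromatin protein of pluripotent cells, had 11.4, 28.1 and 16.9 CPM in ECKO and 88.0, 121, 78.8 and 98.8 CPM in Controls (log2 fold change -2.36, SE 0.43, adjusted p = 0.0137). Prdm14, a regulator of germ cell specification, had 18.7, 7.53 and 11.52 CPM in ECKO and 81.9, 57.8, 51.3 and 36.5 CPM in Controls (log2 fold change -2.18, SE 0.51, adjusted p = 0.0335). All ECKO libraries were below all Controls in both. Ifitm2, an interferon-inducible membrane protein, was higher in ECKO (2.08, adjusted p = 0.0295). The adjusted p was 0.120 for Ifitm2 and 0.122 for Prdm14 without ECKO 2, and 0.0602 for Dppa2 without ECKO 3.

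The core pluripotency factors were not called. Nanog had 49.0, 20.4 and 8.19 CPM in ECKO and 60.8, 62.1, 63.9 and 58.5 CPM in Controls (-1.25, adjusted p = 0.197), so its ECKO libraries were all lower than the Controls but spread from close to them to far below. Pou5f1, which encodes OCT4, overlapped between the groups (-0.75, adjusted p = 0.424), and Sox2 had 22.3, 20.1 and 12.3 CPM in ECKO and 26.8 to 51.8 CPM in Controls (-1.08, adjusted p = 0.211). Dppa3, a protein that guards DNA methylation in oocytes and early embryos, had 1042, 437 and 384 CPM in ECKO and 1437 to 1715 CPM in Controls (-1.38, adjusted p = 0.0617). When ECKO 1 was left out, 14 of the 36 members were called lower and 2 higher. In that setting 1185 of all tested genes were called lower and 956 higher. Without ECKO 3 or without Control 4 edgeR called 0 members of the list.

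Nodal signalling, which supports the pluripotent state in early male germ cells, had 0 of 15 tested members called by edgeR, 1 called lower by DESeq2 and 1 by limma-voom. At an unadjusted p under 0.05 there were 1 higher and 4 lower. The coreceptor Tdgf1 had 23.02, 15.6 and 0.811 CPM in ECKO and 40.2 to 68.7 CPM in Controls (-1.93, adjusted p = 0.176). Lefty2, a target and inhibitor of the pathway, had 129.9, 55.7 and 8.84 CPM in ECKO and 143 to 246 CPM in Controls (-1.60, adjusted p = 0.163). The ligand Nodal was at 9.66, 4.76 and 1.14 CPM in ECKO and 7.60 to 31.7 CPM in Controls (-2.05, adjusted p = 0.177). ECKO 1 was the nearest of the ECKO libraries to the Controls for these 3 genes. Lefty1, another inhibitor of the pathway, overlapped between the groups (0.054, adjusted p = 0.980).

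DNA replication and mitosis genes had a median log2 fold change of -0.92. Of 41 tested members 4 (9.76%) were lower in ECKO, beside 1.90% of all tested genes. Rrm2, a subunit of the enzyme that makes deoxynucleotides, had 17.4, 21.4 and 10.7 CPM in ECKO, against 141, 90.1, 99.4 and 91.2 CPM in Controls (log2 fold change -2.67, SE 0.41, adjusted p = 0.00856). The replication helicase subunits Mcm2 (-1.22, adjusted p = 0.0386) and Mcm4 (-1.16, adjusted p = 0.0470) and the mitotic kinase Plk1 (-1.75, adjusted p = 0.0414) were the others. None of the 4 overlapped between the groups, as held for all 235 genes called lower. The summed CPM of the list, by total counts, was 13860.4, 6637 and 4979 in ECKO 1, 2 and 3 and 14513 to 17695 in Controls, with ECKO 1 close to the Controls. Over all tested genes, 1185 were called lower without ECKO 1, against 235 with every library. Of the 41 members, 18 were called lower in that setting. Without Control 1, 2 or 4, ECKO 2 or ECKO 3 only 1 was.

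D-type cyclins push cells through the first phase of the cycle. Of 7 tested genes of the list of D-type cyclins and partners, 2 (28.6%) were higher in ECKO, beside 2.99% of all tested genes. Ccnd2 had 105, 71.4 and 93.0 CPM in ECKO and 3.64, 2.08, 3.30 and 15.2 CPM in Controls (log2 fold change 3.93, SE 0.66, adjusted p = 0.0107), and Ccnd1 had 109, 75.3 and 106 CPM in ECKO and 12.04, 18.5, 33.4 and 15.2 CPM in Controls (log2 fold change 2.29, SE 0.44, adjusted p = 0.0161). All ECKO libraries were above all Controls for both. Ccnd2 kept its call with any library left out, and the adjusted p of Ccnd1 was 0.0676 without ECKO 3. Of 6 tested cell cycle inhibitors, Cdkn1c was called higher (2.68, adjusted p = 0.0470), a call lost in 6 of 7 such settings, at 0.113 without Control 1. Cdkn1a (-0.22, adjusted p = 0.860) and Cdkn1b (1.46, adjusted p = 0.306) were not called. Cdkn2a, a classic PRC2 target, had 0.596, 0.991 and 2.76 CPM in ECKO and 0 to 0.559 CPM in Controls, and Cdkn2b had 0, 0.396 and 0.0811 CPM in ECKO and 0 to 1.52 CPM in Controls, both below the filter.

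Among genes of the p53 pathway and cell death, Trp53, which encodes p53, had 291, 201 and 127 CPM in ECKO and 654, 669.8, 958 and 474 CPM in Controls (log2 fold change -1.74, SE 0.38, adjusted p = 0.0262). Bak1, a pore-forming death effector, had 0.119, 0.495 and 0.162 CPM in ECKO and 3.34, 1.92, 40.4 and 6.76 CPM in Controls (-5.59, adjusted p = 0.0465). These were the called members of 30 tested, both lower (6.67%, beside 1.90% of all tested genes). Control 3 was far above the other Controls for Bak1, and its call was lost whichever library was left out, at up to 0.157 without ECKO 3. The adjusted p of Trp53 was 0.105 without ECKO 2.

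DNA methylation genes had 3 of 19 tested members higher in ECKO (15.8%, beside 2.99% of all tested genes) and a median log2 fold change of -0.19. Their summed CPM was 2491 to 4038 in ECKO and 5350.1 to 7008 in Controls, so it was lower in every ECKO library than in any Control. In Controls a large part of this sum was Tet1 alone, which is given below and was not called. The sum therefore does not show a fall of the list as a whole. Without ECKO 1 edgeR called 4 higher and 5 lower, without Control 1 it called 1 higher, and without Control 4, ECKO 2 or ECKO 3 it called 0. DESeq2 called 4 higher and 2 lower, and limma-voom 3 higher and 2 lower. The de novo methyltransferase Dnmt3b had 34.2, 109 and 123 CPM in ECKO and 16.1, 8.62, 2.57 and 5.07 CPM in Controls (log2 fold change 3.45, SE 0.65, adjusted p = 0.0149). Dnmt3a, its close relative, averaged 261 ± 97.1 CPM in ECKO and 83.7 ± 20.9 CPM in Controls (1.64, adjusted p = 0.0239). The dioxygenase Tet3 averaged 71.5 ± 51.7 CPM in ECKO and 3.16 ± 2.54 CPM in Controls (4.52, adjusted p = 0.0170). None of the 3 overlapped between groups, as held for 359 of the 369 genes called higher. Tet1, another dioxygenase of that family, had 1642, 309 and 107 CPM in ECKO and 2575 to 5327 CPM in Controls without a call (-2.37, adjusted p = 0.0848). Without ECKO 3 the adjusted p was 0.0683 for Dnmt3b, 0.111 for Dnmt3a and 0.0984 for Tet3.

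Hox genes, the clustered body-axis regulators that are classic PRC2 targets, were near absent from Controls. Their summed CPM by total counts was 198, 81.5 and 158 in ECKO 1, 2 and 3, against 5.37, 5.71, 0.945 and 18.6 in Controls 1 to 4, so the lowest ECKO library was above the highest Control. Of 39 members, 10 passed the low-count filter and 5 of these (50%) were called higher, beside 2.99% of all tested genes. A gene near 0 in Controls had to be high in ECKO to pass, so this count and the median log2 fold change of 6.76 (6.06 with members at 0 counts in Controls set to their bound) are descriptions only. Hoxc12 had 50.6, 2.58 and 13.1 CPM in ECKO and 0, 0.0798, 0 and 0 CPM in Controls, with 611 counts in ECKO and 1 in Controls. That is a ratio of 700.5 with an exact 95% counting interval of 125 to 27713 (adjusted p = 0.00926). Hoxd8 (ratio 177, interval 48.6 to 1469), Hoxd9 (212, interval 58.3 to 1758), Hoxc13 and Hoxc9 were also called. Hoxd9 came mostly from ECKO 1, with 39.8, 2.38 and 0.973 CPM in ECKO 1 to 3.

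Other developmental transcription factors were called higher in 7 of 58 tested members (12.1%), beside 2.99% of all tested genes. Their median log2 fold change was 1.12, and a further 76 stayed below the filter. Of the 7, 6 had a Control mean under 1 CPM and could pass only through the ECKO libraries, so this count and median are descriptions only. With no filter 15 were higher and 3 lower of 127. Snai1, a driver of epithelial to mesenchymal transition, had 7.27, 6.14 and 7.79 CPM in ECKO and no counts in Controls, and was at least 83.7-fold higher. Foxd1, a forkhead factor of kidney stroma, had 27.0, 1.78 and 1.30 CPM in ECKO and was at least 99.4-fold higher. Foxf1, a forkhead factor of mesoderm, had 2.39, 27.5 and 53.7 CPM in ECKO and 0 to 0.211 CPM in Controls (ratio 367, interval 125 to 1782). Different ECKO libraries were high for Foxd1 and Foxf1. Hand1, a heart and mesoderm factor below the filter, had 5.13, 0 and 0 CPM in ECKO and 0 to 1.06 CPM in Controls. Without ECKO 3 edgeR called 0 of the 59 members then tested, and the adjusted p of Foxf1 was 0.0501. Hoxc12 kept its call throughout, and Hoxd8, Hoxd9, Hoxc13, Hoxc9, Snai1 and Foxd1 each lost theirs in 4 or 5 of 7 settings, at adjusted p up to 0.149 for Hoxc13 without ECKO 3.

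**Figure D4:**
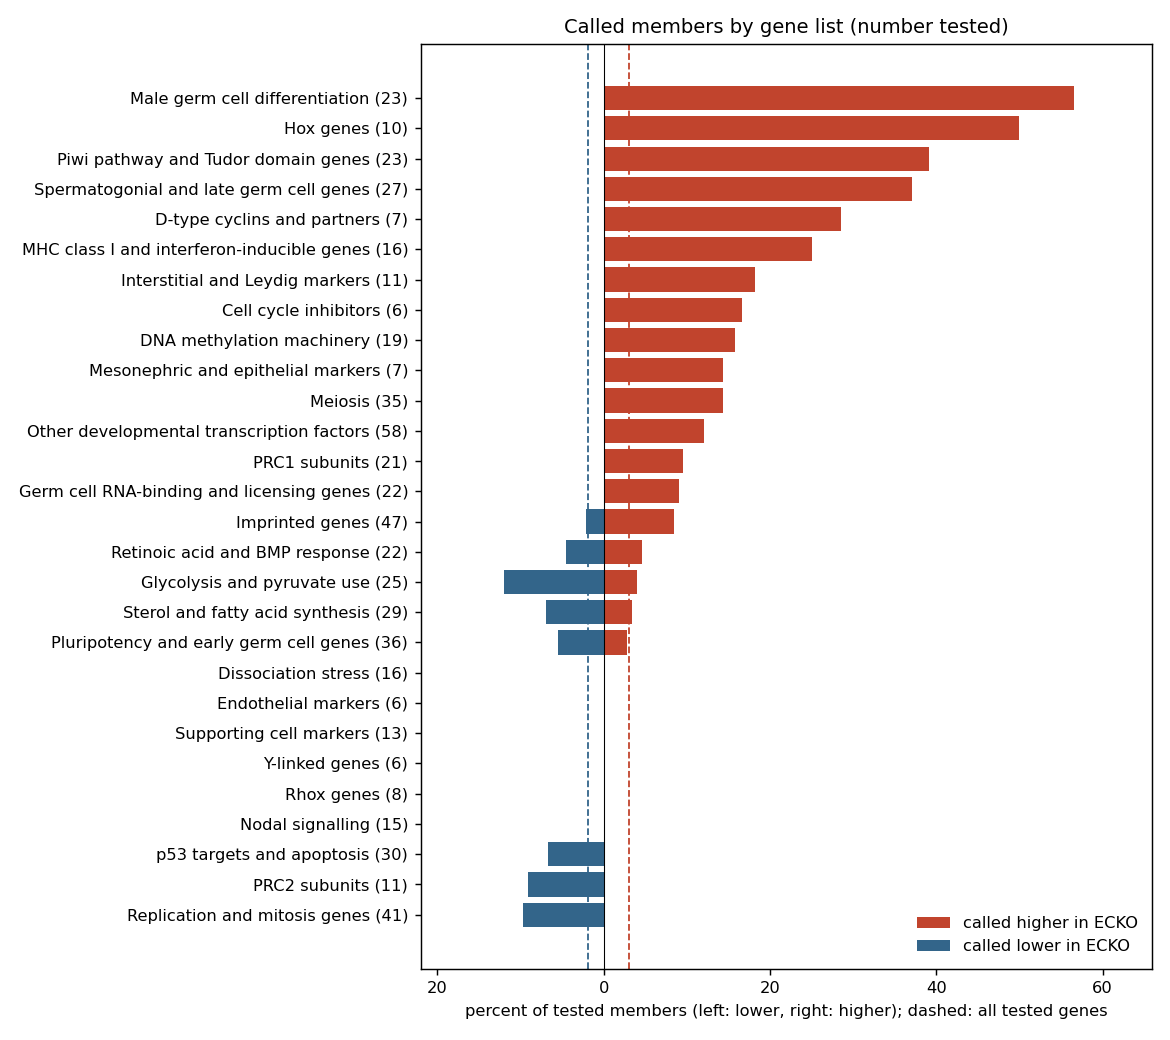
Bars give, for each gene list, the percent of tested members called higher in ECKO to the right and lower to the left, with dashed lines at 2.99% and 1.90% for all tested genes. Male germ cell differentiation reaches 56.5% higher and replication and mitosis 9.76% lower.

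The largest rises by the naming rule were mostly in genes with no counts in Controls. Nptx1, a neuronal pentraxin, had 1.55, 26.1 and 27.2 CPM in ECKO and was at least 233-fold higher. Others of this kind were Lrrc15 (at least 125-fold), the interferon-inducible GTPase Igtp (122), Psmb9 (105), Sytl4 (89.8), Dpep3 (82.9) and Col6a5 (82.2). Lrrc15 was highest in ECKO 1, with 25.5, 6.34 and 3.89 CPM in ECKO, and Sytl4 in ECKO 3, with 1.79, 1.39 and 16.7 CPM in ECKO. Each of these calls was lost in at least 2 settings, at up to 0.178 for Sytl4 without ECKO 3.

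MHC class I and interferon-inducible genes display peptides to immune cells and respond to infection. Of 16 tested members, 4 (25%) were higher in ECKO, beside 2.99% of all tested genes. The median log2 fold change of the list was 1.49, and a further 13 members stayed below the filter. Of the 4, Psmb9 had no counts in Controls and could pass only through the ECKO libraries, so this count and median are descriptions only. B2m, the shared light chain of MHC class I, had 23.9, 22.9 and 26.4 CPM in ECKO and 0.708, 1.60, 0 and 2.75 CPM in Controls (4.29, adjusted p = 0.0386). Psmb9, a subunit of the immunoproteasome, and the interferon-inducible gene Ifi27 (2.81, adjusted p = 0.0126) were also among them. The summed CPM of the list was 473 to 697 in ECKO and 159 to 275 in Controls. Without Control 4 edgeR called 0 of 15.

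The largest falls were to levels near 0 in ECKO. Aif1l, an actin-binding protein, had 0, 0.198 and 0.162 CPM in ECKO and 9.31, 7.27, 43.7 and 18.6 CPM in Controls (log2 fold change -7.15, SE 1.24, adjusted p = 0.0120). Dsg2, a desmosomal cadherin, had 0, 0.0991 and 0.487 CPM in ECKO and 29.6, 6.95, 17.7 and 31.3 CPM in Controls (log2 fold change -6.59, SE 1.19, adjusted p = 0.0135). Siglecf, a sialic acid receptor best known from eosinophils, had 0.239, 0.0991 and 0.0811 CPM in ECKO and 9.08 to 27.0 CPM in Controls (-6.73, adjusted p = 0.0106). In all 3 the groups were far apart. Pdk4, an inhibitor of pyruvate dehydrogenase, had 1 count in the ECKO libraries together and 336 in Controls, a ratio of Control over ECKO of 293 (interval 52.2 to 11609.8), although Control 3 was at 0.245 CPM. The other large falls were in Csrnp3, Shisa7, Abcc2, Pcyt1b, Htr2b and Bak1. Each call was lost with at least 1 library left out, at adjusted p from 0.0512 (Siglecf, without ECKO 2) to 0.157 (Bak1, without ECKO 3).

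Metabolic genes were called in both directions. Of 25 tested glycolysis genes, lactate dehydrogenase Ldha was higher (2.94, adjusted p = 0.0294), and Pdk4, Pdk1 (-1.36, adjusted p = 0.0430) and Pgk1 (-1.61, adjusted p = 0.0346) were lower. That is 4% higher and 12% lower, beside 2.99% and 1.90% of all tested genes. Of 29 tested sterol and fatty acid genes, 1 was higher (3.45%) and 2 were lower (6.9%). Acly, which makes acetyl-CoA for synthesis, was the one higher (1.23, adjusted p = 0.0493), and Sqle, an enzyme of cholesterol synthesis, was among those lower (-2.02, adjusted p = 0.0238). The calls of the genes named in this group and the glycolysis group were lost at up to 0.162 (Acly, without ECKO 3).

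Imprinted genes, expressed from 1 parental allele in many tissues, were higher in 4 (8.51%) and lower in 1 (2.13%) of 47 tested. Over all tested genes these shares were 2.99% and 1.90%, so the share called lower was near that of all genes. Without ECKO 1 edgeR called 7 higher and 4 lower of 54, and without ECKO 2 it called 0. Peg10, a retrotransposon-derived gene, had 54.7, 107 and 175 CPM in ECKO and 3.64, 5.19, 1.59 and 19.01 CPM in Controls (3.96, adjusted p = 0.0149). Rian, a noncoding RNA, had 99.9, 27.5 and 29.0 CPM in ECKO and 0.490 to 6.97 CPM in Controls (3.996, adjusted p = 0.0196). Grb10, a growth inhibitor, averaged 219 ± 165 CPM in ECKO and 23.9 ± 21.6 CPM in Controls (3.20, adjusted p = 0.0292), and Cdkn1c was the remaining member called higher. Peg3, a zinc finger gene, averaged 243 ± 176 CPM in ECKO and 1076 ± 345 CPM in Controls (-2.15, adjusted p = 0.0285) and was the one called lower. The adjusted p was 0.0615 for Rian without Control 1, 0.0683 for Peg10 without ECKO 3, 0.0827 for Grb10 without Control 4 and 0.120 for Peg3 without ECKO 2.

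Each of the remaining lists held at most 2 calls, where 2.99% of all tested genes were higher and 1.90% lower. PRC1, the other Polycomb complex, had 2 of 21 tested members higher (9.52%), Phc2 (3.10, adjusted p = 0.0303) and Cbx2 (1.82, adjusted p = 0.0331). Retinoic acid and BMP response genes had the receptor Rxra higher (2.90, adjusted p = 0.0440) and the receptor Bmpr1a lower (-1.49, adjusted p = 0.0303) of 22 (4.55% each). These 4 calls were each lost with any of Control 1, 2 or 4 or ECKO 2 or 3 left out, at up to 0.198 for Rxra without ECKO 3. Germ cell RNA-binding genes had Mael and Nanos2 higher of 22 (9.09%). By edgeR 0 Rhox genes of 8, 0 Y-linked genes of 6 and 0 dissociation stress genes of 16 were called, with 1 Rhox gene higher and 1 lower, 1 Y-linked gene lower, and 3 stress genes higher and 1 lower at an unadjusted p under 0.05. DESeq2 called 1 Rhox gene higher and 1 lower, 0 Y-linked genes and 2 stress genes higher, and limma-voom called 1 Rhox gene lower.

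Markers of other gonadal cells were measured beside these groups, since a different share of another cell type and a different amount of RNA per cell cannot be told apart in bulk RNA. By edgeR 0 of 13 tested supporting cell markers were called (2 higher at an unadjusted p under 0.05, 2 higher by DESeq2 and 1 by limma-voom), and their summed CPM was 163 to 188 in ECKO and 56.9 to 252 in Controls. Of the defining supporting cell genes, Amh was at most 0.973 CPM in any library and Sox9 was highest in Control 4, at 7.81 CPM. Interstitial markers summed to 111, 312 and 315 in ECKO 1, 2 and 3 and 163 to 193 in Controls. Pdgfra (4.65, adjusted p = 0.0426) and Tagln (6.21, adjusted p = 0.0436) were higher of 11 tested (18.2%, beside 2.99% of all tested genes). Both had a Control mean under 1 CPM and could pass the low-count filter only through the ECKO libraries. The Leydig gene Cyp11a1 had no counts in any library. Their part in the rise of the mesodermal gene Foxf1 was not tested.

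Endothelial markers summed to 77.7 to 110.3 in ECKO and 154 to 230.0 in Controls, with 0 of 6 called by edgeR (2 higher and 1 lower at an unadjusted p under 0.05, 0 by DESeq2 and 1 lower by limma-voom). Blood markers summed to 3.26 to 12.3 in ECKO and 0 to 12.2 in Controls, with 0 of 2 called by edgeR, by DESeq2, by limma-voom or at an unadjusted p under 0.05. Mesonephric and epithelial markers summed to 267 to 480.1 in ECKO and 336 to 636 in Controls. Krt19 was higher (5.65, adjusted p = 0.0430) of 7 tested (14.3%, beside 2.99% of all tested genes). Pdgfra, Tagln and Krt19 each lost their calls in 5 of 7 settings, at up to 0.187 for Pdgfra without ECKO 2.

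The E13.5 effects were set against XY germ cells at E11.5, with 4 ECKO and 4 Control libraries in a table of their own. There 266 of 12497 genes (2.13%) were called, 189 higher (1.51%) and 77 lower (0.616%). Of 11398 genes tested at both stages, 27 were higher at both, which is 9.54% of those higher at E13.5 and 16.7% of those higher at E11.5. A further 15 were lower at both, 6.41% of those lower at E13.5 and 19.7% of those lower at E11.5, and 0 were called in opposite directions. The test of the difference itself, the ECKO effect at E13.5 minus that at E11.5, called 173 of 14447 genes (1.20%), 71 more positive (0.491%) and 102 more negative (0.706%). With 1 library left out it called 30 (without ECKO 3 of E11.5) to 1267 (without ECKO 1 of E13.5). Stage and table cannot be told apart.

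Of 28 members of the male differentiation list tested for the difference, 5 had a more positive ECKO effect at E13.5 and 0 a more negative one, beside 0.491% and 0.706% of all genes tested for it. In the spermatogonial list these were 2 and 0 of 30. Tex101 averaged at E11.5 13.48 CPM in ECKO and 8.92 CPM in Controls, and its effect at E13.5 was larger by 6.49 on the log2 scale (adjusted p = 0.00703). The difference was 6.78 for Tdrd9 (adjusted p = 0.0229), 4.55 for Taf7l (adjusted p = 0.0321) and 2.35 for Mov10l1 (adjusted p = 0.0367). Nanos3 averaged at E11.5 15.8 CPM in ECKO and 25.3 CPM in Controls, and the difference of effects was 4.40 (adjusted p = 0.0459). Tdrd1, Ccnd1, Ccnd2, Cdkn1c, Uchl1, Dnmt3b, Dgkk, Elf4 and Nxf3 were called higher at both stages. The differences for Zbtb16 (2.82, adjusted p = 0.628), Piwil4 (2.62, adjusted p = 0.290), Uchl1 (2.00, adjusted p = 0.161) and Mael (0.95, adjusted p = 0.224) were not called. Nanos2 had no counts at E11.5, so no difference is given. For Tdrd1 the E11.5 log2 fold change was 2.26 and the difference of 0.99 was not called (adjusted p = 0.440). Nxf2 averaged at E11.5 3.81 CPM in ECKO and 0.315 CPM in Controls, and its difference of 4.98 was not called (adjusted p = 0.0768). Stra8 was called higher at E11.5, at 11.1 CPM in ECKO and 0.395 CPM in Controls, and the E13.5 effect was not shown to differ from it (difference -0.94, adjusted p = 0.841).

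Genes with a more negative effect at E13.5 were led by Srgap3 (-3.35, adjusted p = 0.000795) and Heg1 (-2.79, adjusted p = 0.00101), followed by Aif1l (-6.39), Dsg2 (-7.11) and Lrrn4 (-3.59). Srgap3, a regulator of small GTPases of the cytoskeleton, averaged 24.04 CPM in ECKO and 190.0 CPM in Controls at E13.5, and 80.4 CPM in ECKO and 61.6 CPM in Controls at E11.5. Dsg2 averaged 0.195 CPM in ECKO and 21.4 CPM in Controls at E13.5, and 33.5 CPM in ECKO and 22.3 CPM in Controls at E11.5. Rrm2 (-2.15, adjusted p = 0.00592) and Trp53 (-1.46, adjusted p = 0.0471) also had more negative effects at E13.5. On the positive side the smallest adjusted p were those of Rpl22l1 (1.97), Tmsb10 (1.96), Tex101, Atp6v1b2 (2.43) and Chd3 (3.01). These 10 differences stayed called with any 1 library left out.

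**Figure D5:**
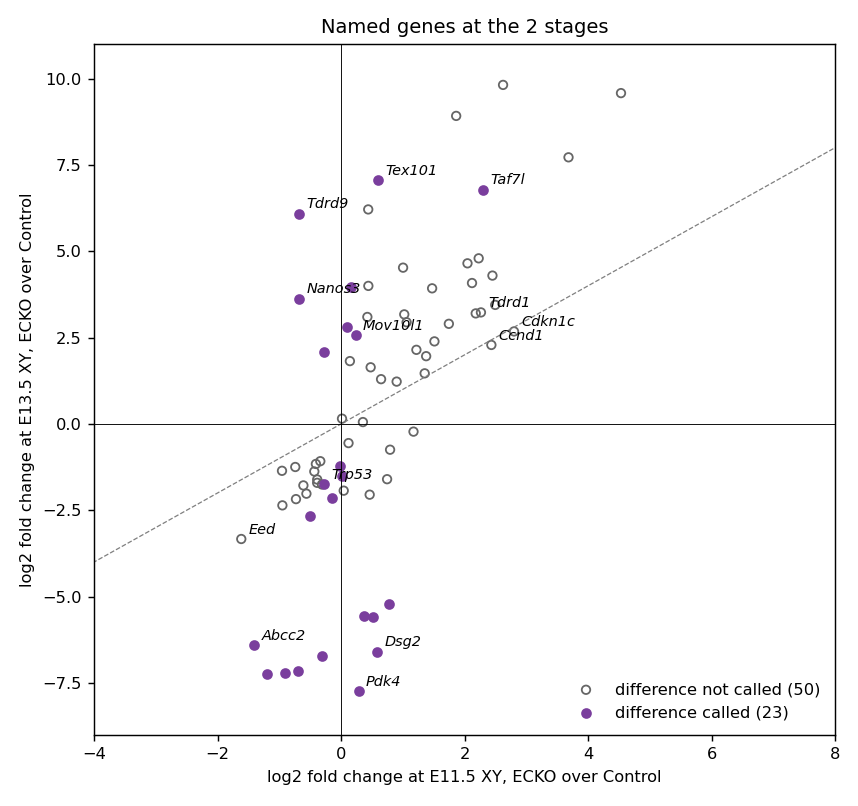
Each point is a named gene tested at both stages, with the log2 fold change of ECKO over Control at E11.5 on the x axis and at E13.5 on the y axis, and the dashed diagonal marks equal effects. Filled points mark an adjusted p under 0.05 for the difference. Tdrd9 and Tex101 lie far above the line, with differences of 6.78 and 6.49, and Pdk4 and Dsg2 far below it, with -8.04 and -7.11.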

How the data were processed

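Bulk RNA-seq of sorted XY germ cells at E13.5 (3 ECKO, 4 Control libraries) was analysed, with 4 and 4 libraries of E11.5 for 1 comparison. The deposited values are whole-number read counts per gene symbol, made by the authors with HISAT2 and edgeR against mm9, per the submitters' processing notes, with their versions, the counting tool, annotation and strand handling not given in the sources used here, so overlapping and antisense genes may share reads. Per the labels' protocols, polyadenylated RNA was amplified before sequencing, so counts are not independent molecules and intervals cover counting error only. The count table's WT columns were taken as the Control samples.

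Genes were tested with edgeR 4.0.16 in R 4.3.3 (filterByExpr, TMM, quasi-likelihood F test, Benjamini-Hochberg adjustment, threshold 0.05), and the stage difference as an interaction over the joined tables. limma 3.58.1 (voom), DESeq2 1.42.0, other scalings and filters, a replicate block and each library left out were alternatives. The code was tested on simulated data. The naming rule took Eed, the 10 largest rises and 10 largest falls without overlap (5 CPM or more on average where higher), up to 4 called members per list, a fixed set of germ cell genes and, for the stage difference, the 5 smallest adjusted p in each direction. Some genes that the rule picked are not reported here. Members and lists were chosen with earlier results of these data known. Promoters came from RefSeq GRCm38.p6, with no coordinates converted.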

Additional observations from a re-analysis of the deposited data

Results flagged for a closer look

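In 13 of 131 sets of 4 Control values checked, 1 Control lay far from the other 3, with a gap of over 0.829 of the whole range, which chance gives in about 1 of 20. Control 2 stood apart, in CPM, for Hoxc12 (0.0798), Tex101 (2.08), En1 (0.0798), Tagln (0.160) and Stra8 (0.399). Control 3 stood apart, in CPM, for Dazl (1091), Ezh2 (525), Suz12 (868), Bak1 (40.4) and Pdk4 (0.245). Control 4 stood apart, in CPM, for Ccnd2 (15.2) and Sox9 (7.81). The mitochondrial leucyl-tRNA synthetase gene Lars2 took 4.83% of counts in Control 4, above the other Controls. For Hoxc12, En1, Tagln and Stra8 the other 3 Controls were at 0, so any counts in 1 Control would give such a gap.

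For 23 of the genes named for E13.5 the ECKO effect differed between E13.5 and E11.5 by the test of the difference (adjusted p under 0.05). A further 7, Srgap3, Heg1, Lrrn4, Rpl22l1, Tmsb10, Atp6v1b2 and Chd3, were picked for the smallest adjusted p of this same test, so their number says nothing about how common such differences were. On the log2 scale the effect was more positive at E13.5 for Rpl22l1 (1.97), Tmsb10 (1.96), Tex101 (6.49), Atp6v1b2 (2.43), Chd3 (3.01), Peg10 (3.89), Tdrd9 (6.78), Ifi27 (2.75), Ifitm2 (2.39), Taf7l (4.55), Mov10l1 (2.35) and Nanos3 (4.40). It was more negative at E13.5 for Srgap3 (-3.35), Heg1 (-2.79), Aif1l (-6.39), Dsg2 (-7.11), Lrrn4 (-3.59), Rrm2 (-2.15), Bak1 (-6.06), Abcc2 (-4.95), Csrnp3 (-6.04), Pdk4 (-8.04), Siglecf (-6.44), Shisa7 (-6.32), Htr2b (-5.95), Pcyt1b (-5.90), Peg3 (-2.01), Bmpr1a (-1.503), Mcm2 (-1.19) and Trp53 (-1.46).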

How the results depend on the processing

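Genes called at E13.5 numbered 604 (369 higher and 235 lower), 1268 (823 and 445) with no low-count filter, 1696 (1001 and 695) by DESeq2, and 861 (457 and 404) by limma-voom. Other scalings, the other filter, robust fitting and removal of Rn45s gave 554 to 701. The median log2 fold change of all tested genes was 0.05, and 0.13 with RLE size factors, 0.18 with upper-quartile scaling and 0.26 with no filter. With 1 library left out there were 94 to 2141 called, 67 to 956 higher and 18 to 1185 lower. The percent of calls that were higher was 61.1, but 44.7 without ECKO 1 and 81.8 without ECKO 2. Genes whose effect differed between stages numbered 173 (71 more positive and 102 more negative), 132 (67 and 65) with RLE size factors, 831 (444 and 387) by DESeq2 and 306 (150 and 156) with no filter. With 1 library left out they numbered 30 to 1267, 13 to 482 more positive and 16 to 785 more negative. With the replicate number as a block, 68 (52 and 16) genes were called at E13.5 and 17 (7 and 10) for the difference between stages. Libraries of the same number did not deviate together (correlations of -0.107, 0.0734 and -0.140), so the numbers were not taken as pairs. The cause of these shifts was not tested.

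Of 73 called named genes, 65 lost their call with some library left out and 13 under a change of test, scaling or filter, and 0 changed direction. With the replicate number as a block 63 of the 73 lost their call, Mael and Hoxc12 among them. Only 6 stayed called under every alternative. Of 19 tested without a call, 9 passed under some setting. Lefty1 (0.05) was at -0.063 by limma-voom and -0.96 to 0.61 with 1 library left out, and Cdkn1a (-0.22) at -1.29 to 0.15. The number of libraries, 3 and 4, and the shallowest, at 4903492 counts, limit what can be called among low genes.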
